A study of Mus musculus with 13 samples.

Results

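The 10 keratins described here are the main intermediate filament genes of the interfollicular epidermis, together with those of simple epithelia. They were taken by name from the count files of P4 skin, and all 10 were among the 54 keratin genes and 49315 genes of these files. *Krt5*, *Krt14* and *Krt15* are keratins of the basal layer, *Krt1*, *Krt10*, *Krt2* and *Krt77* are suprabasal keratins, and *Krt8*, *Krt18* and *Krt19* are keratins of simple epithelia.

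RNA-Seq was performed on the whole thickness of back skin at P4, with 1 library per mouse, from 3 WT mice and from 3 littermates of the genotype *K14Cre+Kctd1 fl/flKctd15 fl/fl* (called DKO), to find genes that differ when KCTD1 and KCTD15 are lost from keratinocytes. Cre is driven by the promoter of the keratin 14 gene, so deletion is limited to the keratinocyte lineage, whereas whole skin also holds dermis, fat and muscle. Whether the WT mice carried floxed alleles or Cre was not given in the sources used here, and neither was the strain of the mice sequenced. The 7 epidermis libraries of the series, from 3-week-old mice, held a count of 0 for all genes and were not analysed here.

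WT replicates 1, 2 and 3 held 14836798, 17643043 and 17470709 counts on genes. DKO replicates 1, 2 and 3 held 11263863, 14950538 and 15050299 counts. A count of 3, taken as the floor, corresponded to 0.17 to 0.266 CPM (counts scaled to library size), and this limit covers counting error only. Values below are normalized counts, that is, counts brought to a common effective library size, the mean over the 6 libraries. Fold changes are those of DKO over WT from edgeR's quasi-likelihood test over 20168 genes, with Benjamini-Hochberg adjustment over all of them, and a gene was called where the adjusted p was under 0.05 and the log2 fold change was above 1 or below -1.

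*Kctd1* held 443, 410 and 442 normalized counts in the WT libraries, in the order of their replicate numbers, and 506, 985 and 735 in the DKO libraries. *Kctd15* held 736, 737 and 763 in WT and 1131, 1509 and 1325 in DKO. Counts of both genes were thus higher in all 3 DKO libraries than in all 3 WT libraries. The conditional alleles remove a single exon of each gene, and counts summed over a whole gene do not show its loss, so these counts do not check the genotype.

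The DKO libraries differed among themselves more than the WT libraries did. DKO replicate 1 was the shallowest library and had a median Pearson correlation of 0.964 with the others of its group across genes, which are not independent replicates, and DKO replicate 2 had 0.963, 0.970 for DKO replicate 3, and 0.980 to 0.983 for the WT libraries. The summed level of 20 skeletal muscle genes was 112654, 98085 and 102961 in WT and 336504, 159205 and 159402 in DKO. The summed level of 20 epithelial genes other than keratins was 163418, 160443 and 149055 in WT and 117876, 183153 and 158263 in DKO. DKO replicate 1 was therefore the highest library for muscle genes and the lowest for epithelial genes, and DKO replicate 2 was the highest for epithelial genes. The part of these differences in the keratin values was not tested.

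Keratins form filaments as pairs of a type I and a type II chain, and the pair made by a keratinocyte changes as it moves outward. Basal cells, which divide and are anchored to the basement membrane, make KRT5 with KRT14, and cells that leave the basal layer switch to KRT1 with KRT10. KRT8 pairs with KRT18 in simple epithelia and in periderm and Merkel cells of skin, and KRT19 is found in simple epithelia and in parts of the hair follicle.

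In P4 DKO skin the major suprabasal pair was higher than in WT, *Krt1* 1.73-fold and *Krt10* 1.39-fold, whereas *Krt77*, a further suprabasal keratin, was 1.73-fold lower. The basal pair *Krt5* and *Krt14* overlapped between genotypes, and the basal keratin *Krt15* was 1.51-fold lower. Among the simple epithelial keratins, which were at low levels, *Krt8* was 3.59-fold lower with overlapping groups. These differences did not pass the call. Of the 10 keratins, 9 had enough counts to be tested and 0 were called by edgeR, against 0.0694% of all genes tested. At an unadjusted p under 0.05 there were 5 of 9, against 7.5% of all genes. The 5 include *Krt8*, with raw counts of 38, 49 and 17 in WT and 6, 14 and 3 in DKO. *Krt8*, *Krt18* and *Krt19* were not tested where at least 10 counts were required in every library. Both numbers of this tally thus depend on the filter on low counts. In 4 of the 9, all libraries of one genotype lay above all libraries of the other, against 13.2% of all genes. DESeq2 with the same thresholds also called 0, of 9 with an adjusted p, against 0.783% of all genes with one. Without a threshold on the fold change, a setting chosen after seeing the data, it called 2 of the 9, *Krt1* and *Krt77*. The share of all genes with an adjusted p was then 1.07%. In DESeq2 with each replicate left out, the adjusted p was under 0.05 in 4 of 6 for *Krt1* and in 1 of 6 for *Krt77*.

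**Figure D1:**
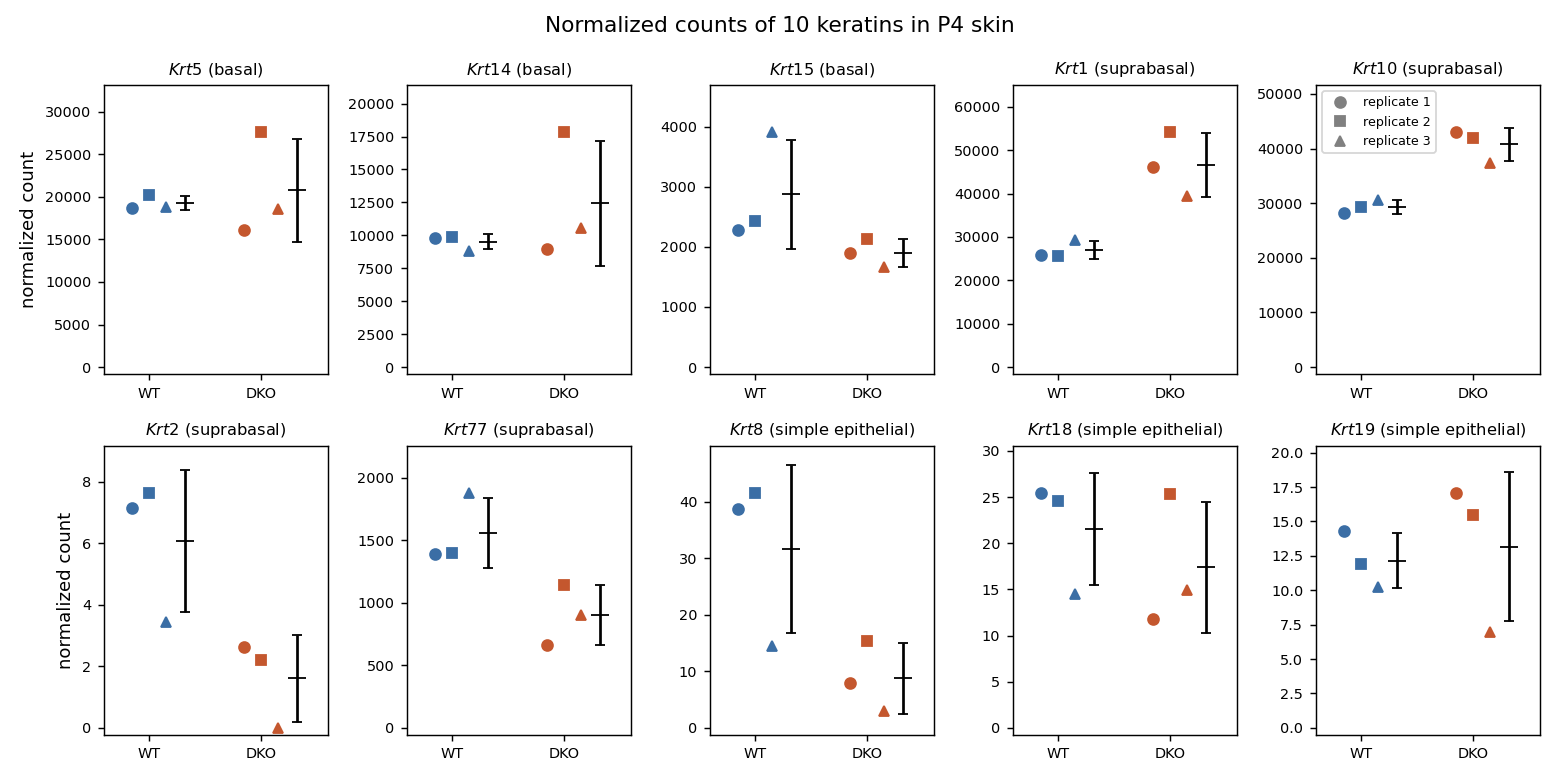
Normalized counts of the 10 keratins (y axis, linear, a separate scale for each gene) in the 3 WT (blue) and 3 DKO (orange) libraries. Each point is 1 library, its shape gives the replicate, and the bars show mean ± SD. *Krt1* and *Krt10* lie higher in all 3 DKO libraries, *Krt15* and *Krt77* lie lower, and DKO replicate 2 is the highest library for *Krt5* and *Krt14*.

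*Krt5*, the type II chain of the basal pair, lies at chr15:101707070-101712891 on the minus strand (GRCm38). It held 18724, 20223 and 18867 normalized counts in WT and 16140, 27627 and 18544 in DKO. DKO replicate 2 was the highest and DKO replicate 1 the lowest of all 6 libraries, so the WT values lay inside the range of DKO. On the log2 scale the fold change was 0.11, with a 95% interval of -0.33 to 0.55 (edgeR, adjusted p = 0.959), so an average change of over 1 on the log2 scale was outside the interval. Its direction turned when DKO replicate 2 was left out, to -0.15.

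*Krt14*, the type I partner of *Krt5*, lies at chr11:100203162-100207548 on the minus strand. It held 9807, 9890 and 8837 normalized counts in WT and 8931, 17848 and 10547 in DKO. The genotypes overlapped, with DKO replicate 2 well above the other 5 libraries, which lay close together. Its log2 fold change was 0.39, with an interval of -0.14 to 0.91 (edgeR, adjusted p = 0.819), and 0.04 without DKO replicate 2. The SD of *Krt14* was 586 in WT and 4751 in DKO (n = 3 each), and that of *Krt5* was 827 in WT and 6059 in DKO.

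*Krt15*, a type I keratin of basal cells and of the hair follicle bulge, lies at chr11:100131758-100135928 on the minus strand. It held 2278, 2428 and 3914 normalized counts in WT and 1897, 2139 and 1664 in DKO. All 3 DKO libraries were below all 3 WT libraries, with WT replicate 3 far above the rest and the other WT libraries only a little above DKO. DKO differed from WT by -0.60 ± 0.21 on the log2 scale (estimate ± SE; edgeR, adjusted p = 0.485). Without WT replicate 3 it was -0.32. DKO replicate 2, the highest of all libraries for *Krt5* and *Krt14*, was below every WT library for *Krt15*.

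*Krt1*, the type II chain of the main suprabasal pair, lies at chr15:101845428-101850786 on the minus strand. It held 25752, 25699 and 29325 normalized counts in WT and 46115, 54202 and 39452 in DKO. Every DKO library was above every WT library, and the gap between the lowest DKO and the highest WT library was wider than the range of WT. The mean ± SD was 26925 ± 2079 in WT and 46590 ± 7387 in DKO (n = 3 each). The genotypes differed by 0.79 ± 0.16 on the log2 scale (estimate ± SE; edgeR, adjusted p = 0.202), below the fold needed for a call, and DESeq2 gave an adjusted p of 0.000928. In whole skin, more or fewer cells of a type and more or less RNA per cell cannot be told apart, for *Krt1* or for any other keratin here.

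*Krt10*, the type I partner of *Krt1*, lies at chr11:99385254-99389364 on the minus strand. It held 28118, 29207 and 30612 normalized counts in WT and 43033, 41932 and 37267 in DKO. The genotypes did not overlap, and DKO replicate 3 was the lowest DKO library for *Krt10* as it was for *Krt1*. The mean ± SD was 29312 ± 1250 in WT and 40744 ± 3061 in DKO (n = 3 each). The difference was 0.48 ± 0.14 on the log2 scale (estimate ± SE; adjusted p = 0.352 by edgeR and 0.0721 by DESeq2). Across the 6 libraries, 3 of each genotype, the log2 levels of *Krt1* and *Krt10* had a Pearson r of 0.98, given as a description of libraries that fall into 2 genotypes.

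*Krt77*, a type II keratin of suprabasal cells whose gene lies next to *Krt1*, is at chr15:101858732-101869705 on the minus strand. It held 1393, 1395 and 1880 normalized counts in WT and 661, 1139 and 901 in DKO. All DKO libraries were below all WT libraries, in the opposite direction to *Krt1* and *Krt10*. *Krt77* differed by -0.79 ± 0.21 on the log2 scale (estimate ± SE; adjusted p = 0.303 by edgeR and 0.0345 by DESeq2). With each replicate left out, the DESeq2 adjusted p was under 0.05 only without DKO replicate 2. Within DKO, replicate 1 was the lowest library for *Krt77*, and it was also the lowest for epithelial genes other than keratins.

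*Krt2*, a late suprabasal keratin that in mice is made mainly in ear, tail and sole skin, lies at chr15:101810689-101818169 on the minus strand. It had raw counts of 7, 9 and 4 in WT and 2, 2 and 0 in DKO. The WT libraries were just above the floor of 3 counts and the DKO libraries were under it. The gene did not pass the filter on low counts and was not among the genes tested. Run without the filter, *Krt2* was at -1.92 on the log2 scale (edgeR, adjusted p = 0.826) and did not pass. Over the summed libraries, 4 counts in DKO against 20 in WT gave a ratio of counts per total of 0.242 with an exact 95% interval of 0.0602 to 0.723, which covers counting error only and not the difference between mice.

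**Figure D2:**
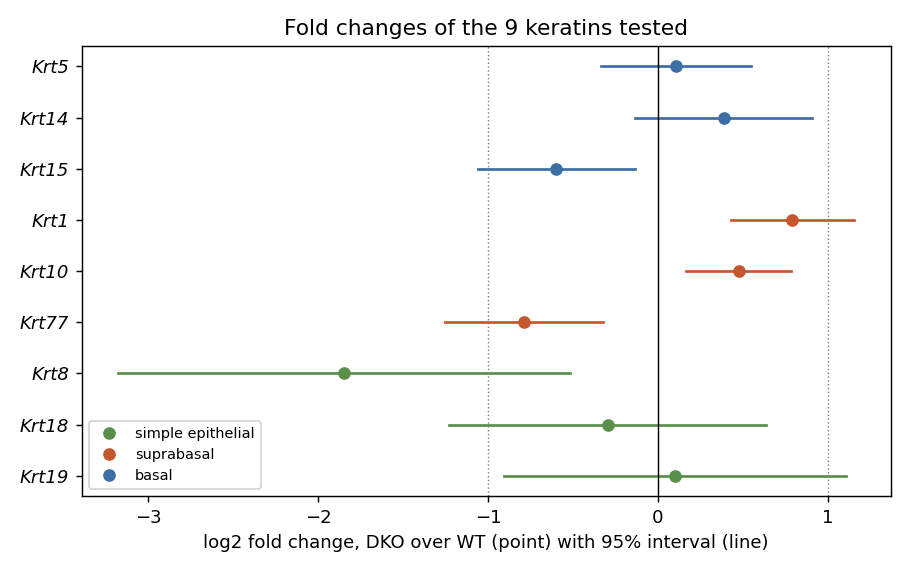
Log2 fold changes of DKO over WT (x axis) for the 9 keratins tested (y axis), with points for the estimates and lines for 95% intervals from edgeR. Dotted lines mark the fold change needed for a call. The intervals of *Krt1* and *Krt10* lie above 0, those of *Krt15*, *Krt77* and *Krt8* lie below 0, and those of the other 4 keratins hold 0.

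*Krt8*, the type II chain of the simple epithelial pair, lies at chr15:101996711-102004342 on the minus strand. It held 38.7, 41.6 and 14.5 normalized counts in WT and 7.89, 15.4 and 2.99 in DKO, from raw counts of 38, 49 and 17 in WT and 6, 14 and 3 in DKO. WT replicates 1 and 2 were high, and WT replicate 3 lay just under DKO replicate 2, so the groups overlapped. Its estimated log2 fold change of -1.85 had a wide 95% interval of -3.18 to -0.52 (edgeR, adjusted p = 0.434). DKO replicate 3 was at the floor. Without DKO replicate 2 the log2 fold change was -2.57 (edgeR, adjusted p = 0.196), and without DKO replicate 3 it was -1.40. DESeq2 called *Krt8* without DKO replicate 2, at -2.59 (adjusted p = 0.0468), but not with all 6 libraries (adjusted p = 0.195).

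*Krt18*, the type I partner of *Krt8* and its neighbor on the chromosome, lies at chr15:102028216-102032026 on the plus strand. It held 25.5, 24.6 and 14.5 normalized counts in WT and 11.8, 25.4 and 14.9 in DKO. The groups overlapped over nearly their whole range, with WT replicate 3 again low within WT and DKO replicate 2 high within DKO. At this depth the interval of its log2 fold change of -0.30 was wide, from -1.23 to 0.64 (edgeR, adjusted p = 0.950). With 1 library left out it went from -0.12 without DKO replicate 1 to -0.66 without DKO replicate 2, and to -0.53 without WT replicate 3. *Krt8* and *Krt18* both have processed pseudogenes, and how reads that match several genes were counted was not given in the sources used here, so these low counts are uncertain.

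*Krt19*, the smallest type I keratin, lies at chr11:100140810-100148665 on the minus strand, beside *Krt15*. It held 14.3, 11.9 and 10.3 normalized counts in WT and 17.1, 15.4 and 6.97 in DKO. DKO held both the highest and the lowest of the 6 libraries. For *Krt19* the log2 fold change was 0.10, with an interval of -0.91 to 1.11 (edgeR, adjusted p = 0.979), and its direction turned to -0.14 without DKO replicate 1, to -0.04 without DKO replicate 2 and to -0.02 without WT replicate 3.

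Levels of different genes were compared as normalized counts per kilobase of annotated exons. In WT, *Krt10* stood first with 13866 ± 591 and *Krt1* second with 11012 ± 850 (mean ± SD, n = 3), and their libraries did not overlap. *Krt5* followed with 8800 ± 378 and *Krt14* with 5410 ± 333. *Krt15* was next with 1626 ± 512, and *Krt77* with 531 ± 95.8. *Krt8* (17.5 ± 8.23) and *Krt18* (15.4 ± 4.34) did not differ beyond their spread, and *Krt19* (6.54 ± 1.09) and *Krt2* (2.32 ± 0.881) were the lowest. In DKO, *Krt10* (19273 ± 1448) and *Krt1* (19055 ± 3021) no longer stood apart beyond their spread, and *Krt18* (12.4 ± 5.07) had a higher mean per kilobase than *Krt19* (7.10 ± 2.93) and *Krt8* (4.86 ± 3.48), with overlapping libraries.

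Ratios within a library do not depend on scaling between libraries. The summed counts per kilobase of the suprabasal keratins over those of the basal keratins were 1.58, 1.53 and 1.71 in WT and 2.92, 1.77 and 2.21 in DKO. Every DKO library was above every WT library, by a narrow margin for DKO replicate 2. The log2 ratio differed by 0.49 between genotypes (exact two-sided permutation p = 0.1, the smallest that 3 against 3 allows), and by 0.30 without DKO replicate 1. The ratio of simple to basal keratins was 0.00307, 0.00290 and 0.00151 in WT and 0.00163, 0.00146 and 0.00104 in DKO, with a log2 difference of -0.81 (exact two-sided permutation p = 0.2). Here WT replicate 3 lay among the DKO libraries.

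Ratios between single keratins, chosen after their values were seen, are given as descriptions. The ratio of *Krt1* to *Krt10* per kilobase was 0.792, 0.761 and 0.828 in WT and 0.927, 1.12 and 0.915 in DKO. The ratio of *Krt5* to *Krt14* was 1.53, 1.64 and 1.71 in WT and 1.45, 1.24 and 1.41 in DKO. In both pairs the libraries of the genotypes did not overlap, and the type II chain gained on its partner in the suprabasal pair and lost in the basal pair. The ratio of *Krt77* to *Krt1* was 0.0452, 0.0453 and 0.0535 in WT and 0.0120, 0.0175 and 0.0191 in DKO. The ratio of *Krt15* to *Krt14* was 0.231, 0.244 and 0.441 in WT and 0.211, 0.119 and 0.157 in DKO. The *Krt77* ratio was separated widely between genotypes, and the *Krt15* ratio by little. The ratio of *Krt8* to *Krt18* was 1.18, 1.31 and 0.776 in WT and 0.517, 0.472 and 0.155 in DKO, from low counts. Its libraries did not overlap either. The ratio of *Krt1* to *Krt5* was 1.23, 1.14 and 1.39 in WT and 2.56, 1.76 and 1.91 in DKO, again without overlap. The ratio of *Krt10* to *Krt14* was 2.38, 2.46 and 2.88 in WT and 4.01, 1.95 and 2.94 in DKO. Here the genotypes overlapped, and DKO held both the highest and the lowest library.

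**Figure D3:**
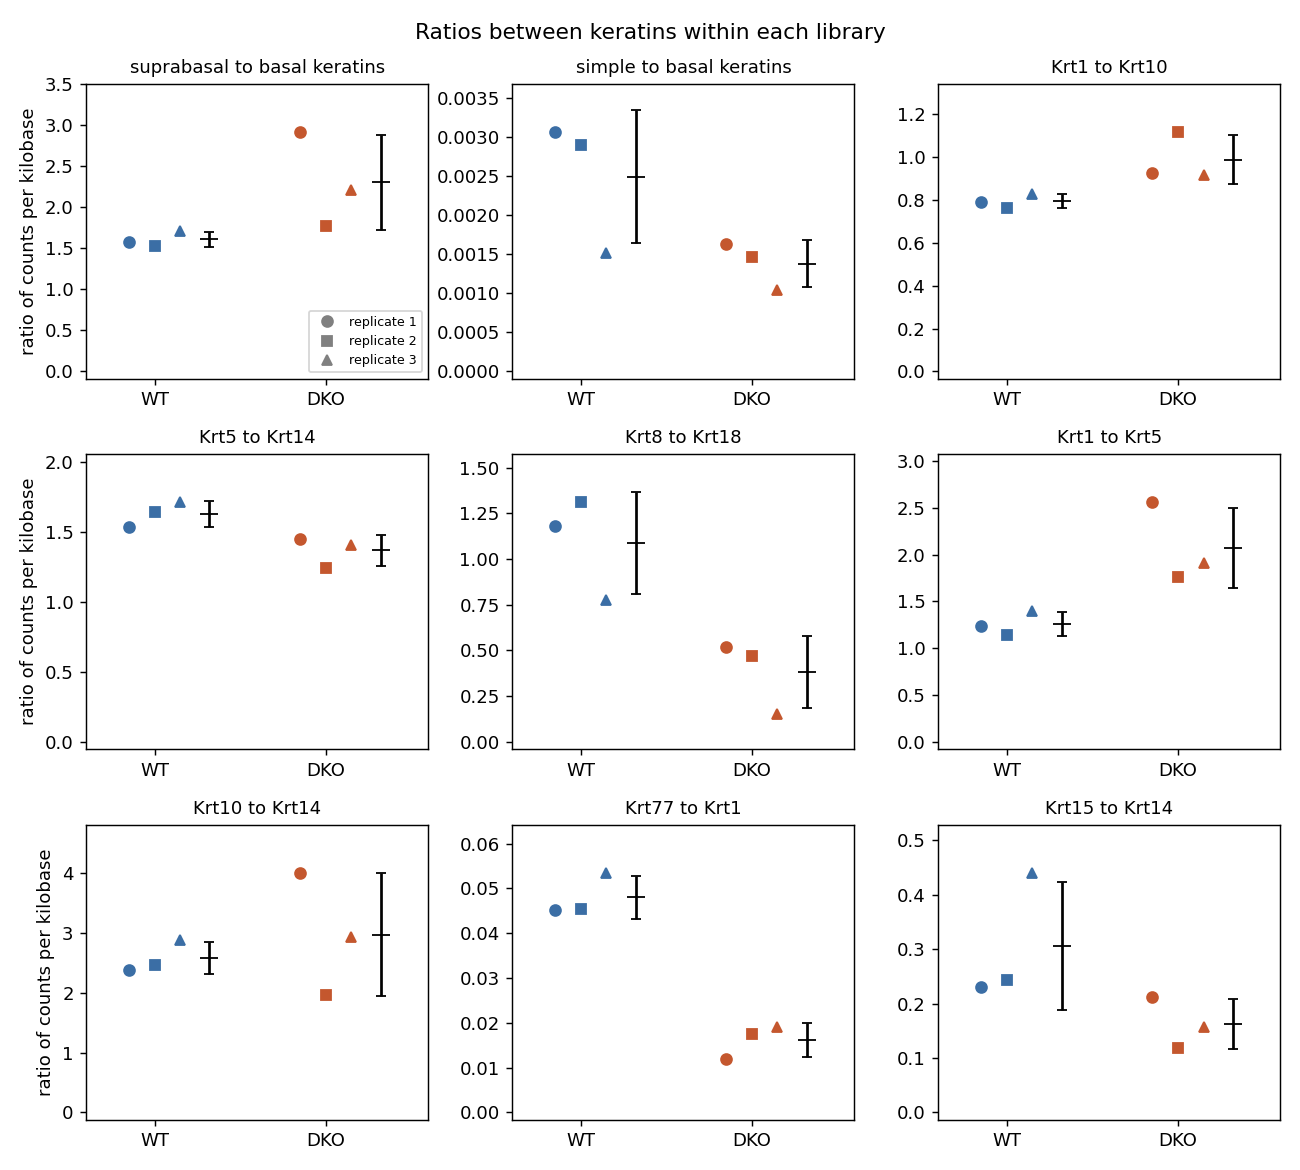
Ratios of counts per kilobase within each library (y axis, a separate scale for each panel) for all 9 ratios computed between keratin sums or genes in WT (blue) and DKO (orange). Points are libraries, shapes are replicates and bars show mean ± SD. The genotypes overlap for simple to basal keratins and for *Krt10* to *Krt14*, and they do not overlap in the other panels.

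The 10 keratins together took 0.570%, 0.594% and 0.625% of all counts in WT and 0.789%, 0.879% and 0.724% in DKO. Every DKO library was above every WT library (exact two-sided permutation p = 0.1). Suprabasal keratins took 0.366%, 0.376% and 0.414% in WT and 0.607%, 0.590% and 0.518% in DKO. Basal keratins took 0.204%, 0.217% and 0.212% in WT and 0.182%, 0.289% and 0.205% in DKO, with overlapping groups. The difference in the total was thus mainly in the suprabasal sum, where the genotypes did not overlap. In DKO replicate 2, the library with the highest total, the basal sum was also above all WT libraries. The other 44 keratin genes, mostly of hair and inner root sheath, took 1.30%, 1.29% and 1.18% in WT and 0.524%, 1.23% and 0.928% in DKO.

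The labels of the mice open with a number, 47347 for WT replicates 1 and 2 and DKO replicates 2 and 3, and 40972 for WT replicate 3 and DKO replicate 1. What the number stands for is not given in the sources used here. *Krt1* differed by 0.86 on the log2 scale among mice numbered 47347 and by 0.65 between the pair numbered 40972. *Krt10* differed by 0.47 and 0.49. Both were higher in DKO by similar amounts under each number. *Krt77* differed by -0.45 and -1.51, and *Krt15* by -0.31 and -1.04. These were lower in DKO under each number, with larger differences in the pair numbered 40972, which is 1 mouse of each genotype. *Krt8* differed by -2.12 and -0.88, and *Krt18* by -0.31 and -0.30. *Krt14* differed by 0.53 and 0.02. The direction turned between the numbers for *Krt5*, at 0.25 and -0.23, and for *Krt19*, at -0.22 and 0.73.

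Among the other 44 keratin genes, 37 were tested and 1 was called. Their median log2 fold change was -0.35, against 0.10 for the 9 tested members and 0.02 for all genes tested. The called gene was *Krt16*, a keratin of wounded and stressed epidermis and of the companion layer, with 281, 284 and 139 normalized counts in WT and 2927, 2992 and 2372 in DKO. Its log2 fold change was 3.56 (edgeR, adjusted p = 0.00148). *Krt6b* held 14.3, 30.6 and 16.3 in WT and 586, 123 and 109 in DKO (adjusted p = 0.146 by edgeR and 0.00337 by DESeq2). It was called by DESeq2, and by edgeR without a filter on low counts or without DKO replicate 1. *Krt6a* held 2220, 2399 and 1322 in WT and 2157, 3331 and 2968 in DKO. *Krt6a* and *Krt6b* are near-identical, so the split of reads between them is uncertain. *Krt17*, the most abundant of the 6 stress and companion layer keratins, was at 0.05 on the log2 scale. In WT, *Krt16* was at 150 counts per kilobase, below all suprabasal members but *Krt2*.

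Other genes of the layers in which the members are made were compared with them by counts of genes at an unadjusted p under 0.05, which across all genes tested were 4.96% higher and 2.54% lower in DKO. Of 13 basal layer genes, 0 were higher and 0 lower, while all 13 had log2 fold changes above 0, with a median of 0.06. The genotypes overlapped for all 13. The median of all genes tested was 0.02, and -0.02 with total counts, so signs this near 0 can depend on the scaling. *Itga6*, an integrin of the hemidesmosome, had a log2 fold change of 0.25, *Col17a1* had 0.16, and *Dst*, the most abundant, had 0.06. Like *Krt5* and *Krt14*, these genes did not pass the test. Of 14 spinous layer genes, 0 were higher and 2 lower, with a median of -0.13. They were *Calml3*, a calmodulin-like protein, at -1.05 (edgeR, adjusted p = 0.135), and *Fabp5*, a fatty acid binding protein, at -0.47, both opposite in direction to *Krt1* and *Krt10*. *Dsg1a*, the most abundant, was at -0.26. Of 16 granular layer genes, 2 were higher and 0 lower, *Rptn* at 1.68 (edgeR, adjusted p = 0.354) and *Lce1a1* at 0.48, with a median of 0.01. *Rptn* held 250, 177 and 102 normalized counts in WT and 1070, 340 and 293 in DKO, with DKO replicate 1 far above the rest. *Flg*, the most abundant, was at 0.30. Of 12 genes for linkers of keratin filaments to junctions, 0 were higher and 0 lower (median 0.00), with *Plec* at 0.26, *Pkp2* at -0.27 and *Dsp* at -0.09. Of 25 epidermal transcription factors, 1 was higher and 1 lower (median 0.05), *Runx1* at 0.29 and *Ehf* at -0.40, and the most abundant, *Notch1*, was at 0.05. In these 5 lists edgeR called 0 genes, and DESeq2 with the same thresholds called *Calml3* (adjusted p = 0.000291). Since *Krt15* is also made in the hair follicle bulge, 11 genes of hair follicle stem cells were read beside it, of which 1 was higher, *Lgr6* at 0.49, and 0 were lower, with *Gli1* at 0.31. Their sum was 16498, 16800 and 16250 in WT and 16542, 19878 and 16947 in DKO, with *Lrig1* the most abundant, at 0.09. The part of these cells in the *Krt15* values was not tested.

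Simple epithelial keratins in skin can come from several cell types, and the marker genes of these were read beside *Krt8*, *Krt18* and *Krt19*. The summed level of the 12 Merkel cell genes was 691, 669 and 779 in WT and 653, 811 and 485 in DKO. Most of it came from *Piezo2*, the most abundant over all 6 libraries, and *Tubb3*. Their mean levels were 293 and 327 in WT and 332 and 190 in DKO, so the sum mainly follows these genes. The defining factor *Atoh1* had raw counts of 0, 1 and 0 in WT and 2, 2 and 0 in DKO, under the floor. *Krt20*, a Merkel cell keratin, held 16.3, 42.4 and 18.0 normalized counts in WT and 18.4, 15.4 and 13.9 in DKO, with overlapping groups as for *Krt8*. *Isl1* was at 1.73 and *Tubb3* at -0.79 on the log2 scale (edgeR, adjusted p = 0.253 and 0.661). Of the 12 genes, 7 were tested, and *Isl1* was higher and *Tubb3* lower at an unadjusted p under 0.05. Of 8 mesothelial genes, 2 were tested, *Upk1b* at -1.27 and *Gpm6a*, the most abundant, at -0.39. *Upk1b* was lower at an unadjusted p under 0.05, and its genotypes did not overlap. The other 6 had too few counts to be tested. The defining gene *Msln* had raw counts of 2, 2 and 0 in WT and 1, 1 and 3 in DKO, at or under the floor. The summed mesothelial level was 176, 152 and 138 in WT and 82.8, 114 and 142 in DKO. Of 12 mammary and glandular genes, 7 were tested, with *Areg* at -0.73, *Esr1* at 0.32 and *Slc12a2*, the most abundant, at -0.05, and *Csn2* was at 0 in all libraries. *Areg* was lower at an unadjusted p under 0.05, and 0 were higher. Their sum was 3938, 3705 and 3662 in WT and 3555, 2964 and 3791 in DKO. Of 8 other simple and glandular keratins, 5 were tested and 0 were higher or lower at an unadjusted p under 0.05, with *Krt7* at -0.45 and *Krt80*, the most abundant, at -0.06. The part of these cell types in the *Krt8* values was not tested.

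Genes of other compartments were read beside the keratins. The summed level of 12 hair follicle matrix and inner root sheath genes was 211652, 212408 and 185871 in WT and 75448, 183365 and 137204 in DKO, with 3 of 12 lower at an unadjusted p under 0.05, *Krt71* at -0.73 and *Krt73* at -0.50 among them, and *Tchh*, the most abundant, at -0.66. That of 12 sebaceous gland genes was 43572, 47408 and 40260 in WT and 14014, 22644 and 18022 in DKO, with 9 of 12 lower, *Elovl6* at -1.66 and *Scd1*, the most abundant, among them. Of the 20 skeletal muscle genes, 16 were higher, *Tnni2* at 1.23, *Des* at 1.30 and *Ttn*, the most abundant, at 1.05 among them. The 12 dermal fibroblast genes summed to 243391, 275981 and 299835 in WT and 338975, 411401 and 277927 in DKO, with overlapping groups, 4 of 12 higher, all 12 above 0 and a median of 0.37 (*Pdgfrb* at 0.38, *Pdgfra* at 0.43 and *Col1a1*, the most abundant, at 0.40). The 10 adipocyte genes summed to 24201, 24432 and 35831 in WT and 49198, 24935 and 22215 in DKO, with 2 of 10 higher (*Retn* at 1.42 and *Cfd* at 1.09) and *Car3*, the most abundant, at 0.41. Of 12 proliferation genes 0 were higher or lower (*Top2a* at -0.23, *Ccnb1* at -0.19, *Mki67*, the most abundant, at -0.16), and of the 20 epithelial genes 0 were higher or lower (*Dsc3* at -0.26, *Cldn1* at -0.25, *Dsp*, the most abundant, at -0.09). By the call, edgeR found 0 hair follicle, 1 sebaceous gland (*Elovl6*) and 0 muscle genes, and DESeq2 found 0, 7 and 10. For fibroblast and adipocyte genes edgeR found 0 and 0, and DESeq2 found 0 and 2 (*Cfd* and *Retn*). The part of these compartments in the share of counts on the 10 keratins was not tested. With library sizes set to the 20 epithelial genes, *Krt1* was at 0.86, *Krt10* at 0.57, *Krt15* at -0.53 and *Krt77* at -0.77, and without the skeletal muscle genes they were at 0.77, 0.46, -0.61 and -0.81. The direction of each was thus the same under these scalings.

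The genes whose log2 levels over the 6 libraries were most like the mean profile of each keratin group were found among 12324 tested genes with at least 100 normalized counts on average. They were *Nf2*, *Mrpl57* and *Rgp1* for the basal keratins (Pearson r of 0.997, 0.993 and 0.993). For the suprabasal keratins *Krt1*, *Krt10* and *Krt77* they were *Bcl2l12*, *Fadd* and *Fam53b* (0.994, 0.992 and 0.990). For the simple epithelial keratins they were *Sh3tc1*, *Gm20548* and *Asf1b* (0.982, 0.977 and 0.975). These are the highest of many values over 6 libraries and are given as a description. All 3 profiles average keratins that differ in their levels over the libraries. *Krt77* had an r of -0.67 with *Krt1* and -0.79 with *Krt10*, and 0.84 with *Krt15*. *Krt15* had an r of 0.05 with *Krt5* and -0.27 with *Krt14*, and *Krt19* had 0.47 with *Krt8* and 0.23 with *Krt18*.

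The set of RefSeq promoter windows used here (GRCm38.p6) held 7 of the 10 keratins. It did not hold *Krt1*, *Krt15* and *Krt19*, so their promoters were not read. The window of *Krt14*, chr11:100206031-100206280, lies inside its annotated gene, and that of *Krt5* ends short of its annotated start. Both were searched for motifs like the others. The 250 bases before the start of *Krt10* and of *Krt77* are shown because these suprabasal genes differed in opposite directions. The *Krt10* window is chr11:99389365-99389614 and the *Krt77* window is chr15:101869706-101869955, both on the minus strand and written 5′ to 3′. Capitals mark TATAAA, searched on both strands.
Krt10: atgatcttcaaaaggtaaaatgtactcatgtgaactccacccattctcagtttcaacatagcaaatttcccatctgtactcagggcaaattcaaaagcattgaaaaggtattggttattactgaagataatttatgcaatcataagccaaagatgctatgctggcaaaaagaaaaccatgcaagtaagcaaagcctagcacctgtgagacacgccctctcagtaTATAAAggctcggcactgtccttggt
Krt77: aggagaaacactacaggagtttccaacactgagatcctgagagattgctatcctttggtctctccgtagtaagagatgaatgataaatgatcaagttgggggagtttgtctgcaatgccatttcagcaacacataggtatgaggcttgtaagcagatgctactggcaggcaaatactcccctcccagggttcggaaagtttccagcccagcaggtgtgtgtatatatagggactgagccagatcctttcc
TATAAA was found in *Krt10*, 26 to 21 bases before the start, and not in the *Krt77* window, and 12.4% of 32851 such windows hold it. Only this exact string was searched. Similar stretches, such as the tatatata near the end of the *Krt77* window, were not marked, so the search does not show that *Krt77* lacks a TATA box. GCCNNNGGC, a motif bound by AP-2 factors that reads the same on both strands, was in neither window. It was found in the *Krt18* window, 83 to 75 bases before the start, and 13.7% of all windows hold it. The 2 motifs did not overlap in these windows.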

How the data were processed

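Paired-end reads of rRNA-depleted libraries were trimmed (Trimmomatic 0.36), aligned to GRCm38 (STAR 2.5.2b) and counted per gene (featureCounts of Subread 1.5.2) by the authors, and the deposited values are these counts, without normalization. Use of strand and of reads matching several genes is not given in the sources used here. Symbols were found for 48970 of 49315 identifiers (99.3%).

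The main test used edgeR 4.0.16 in R 4.3.3 (filterByExpr, TMM, quasi-likelihood F test), with DESeq2 1.42.0 as an alternative. The study itself used DESeq2, with the same thresholds for a call as here. A standard error is the absolute log2 fold change over the square root of F. Both tools were tested on simulated data. Ratios and shares were compared by exact permutation of libraries. Correlations used log2 of the normalized count plus 1. Figures were drawn with matplotlib 3.10.9. The 7 epidermis libraries were left out because all their counts were 0.

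Named genes were the members, *Kctd1*, *Kctd15*, *Krt16*, *Krt6a*, *Krt6b*, any other keratin called, in each gene list the 2 genes with the smallest p and the most abundant gene, and the 3 genes most like each keratin group. *Atoh1*, *Msln* and *Csn2* are named as markers at or near 0. The members and lists were chosen with earlier results of these data known. Alternatives were other scalings, filters, thresholds and a replicate block, and each replicate left out.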

Additional observations from a re-analysis of the deposited data

How the results depend on the processing

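Genes called in P4 skin numbered 14, and 22 with total counts, 210 without a filter on low counts, 35 with the replicate block, 154 with DESeq2, 210 with DESeq2 and no threshold on the fold change, and 2 to 36 with each replicate left out. The members called were 0 with edgeR under all settings run and with DESeq2 on all libraries. DESeq2 with no threshold on the fold change, chosen after seeing the data, called 2, and DESeq2 without DKO replicate 2 called *Krt8* (-2.59, adjusted p = 0.0468). Other keratins called were 1 (*Krt16*), and 2 (with *Krt6b*) without a filter, with DESeq2 at either threshold and without DKO replicate 1 (1 to 2 with each replicate left out). The cause was not tested. *Krt1* had log2 fold changes of 0.67 to 0.90 over its 20 alternatives and *Krt77* of -0.99 to -0.63. Without a filter their edgeR adjusted p was 0.00111 and 0.00595, and with each replicate left out it was 0.108 to 0.762 and 0.0996 to 0.742. In DESeq2 with each replicate left out, added after seeing the data, *Krt1* had an adjusted p of 4.86e-05 to 0.115, under 0.05 in 4 of 6, *Krt77* of 0.000106 to 0.527, *Krt10* of 0.00992 to 1.00 and *Krt8* of 0.0468 to 1.00, the last 3 each under 0.05 in 1 of 6, without DKO replicate 2. The direction turned for 2 keratins. *Krt5* went to -0.148 without DKO replicate 2 in edgeR and -0.151 in DESeq2, with up to 0.243 for other replicates left out. *Krt19* went to -0.019 without WT replicate 3, -0.139 without DKO replicate 1 and -0.044 without DKO replicate 2 in edgeR, and to -0.02, -0.142 and -0.036 in DESeq2, with up to 0.422 for other replicates left out.

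The numbers in the mouse labels were run as a replicate block. Deviations from the group means of mice sharing a number correlated at 0.223, -0.017, 0.139, 0.164 and -0.009, and those of mice with different numbers at -0.116, -0.137, -0.103 and -0.144. Every pair sharing a number was above every pair that did not. The labels do not say what the number marks, so pairing was not assumed in the main test. The block moved the genes called to 35 and changed no call of a keratin. The 2 ratios of keratin sums and the share kept their direction with each replicate left out. Among the 7 ratios between single keratins, run in the same way after seeing the data, that of *Krt10* to *Krt14* turned from 0.149 to -0.098 on the log2 scale without DKO replicate 1, with up to 0.42 for other replicates left out, and the other 6 kept their direction. A permutation p that cannot go below 0.1 says nothing about stability. *Krt8*, *Krt18*, *Krt19* and *Krt2* are limited by counts of 0 to 49 per library.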
